A study of Danio rerio with 4 samples.

Results

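The genes described here lie around *eomesa* on zebrafish chromosome 19. They were chosen by position alone: every gene of the deposited table that starts at or below 11 Mb on chromosome 19 (Zv9), apart from *eomesa* itself. Names starting with hox were also to be left out, and 0 were found in this interval. This gave 349 of the 32468 genes listed. The study compared, by RNA-seq, whole wild-type embryos of the AB strain with MZ*eomesa* embryos at sphere stage, 2 samples in each group. MZ*eomesa* embryos carry the fh105 allele and lack both maternal and zygotic Eomesa. They are labelled as AB too, and were obtained by *in vitro* fertilisation from homozygous mutant parents. The paper adds that embryos of mutant mothers with heterozygous or wild-type fathers replaced them in some experiments, which it does not specify. The labels name no further control from the mutant line, so that a difference between the lines and an effect of losing Eomesa cannot be told apart. In whole embryos, fewer cells of a type and less RNA per cell cannot be told apart either. Expression is given as FPKM, the number of fragments scaled to the length of the gene and to the size of the library. In a pair of values the wild-type level stands first and the level in the mutants (MZ*eomesa* embryos) second. The authors combined both samples of a group into 1 value per gene. No spread between replicates can therefore be given, the depth behind each value is unknown, and every difference below is a description with no test and no replicate check.

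Eomesodermin is a T-box transcription factor that acts with Nodal signalling in mesoderm and endoderm formation. In zebrafish *eomesa* is supplied to the egg by the mother. Genes that lie close to a mutation are inherited together with it, so that a mutant line keeps a stretch of the chromosome on which the mutation arose, with its own sequence variants. A gene in such a stretch can differ between lines with or without being a target of the mutated factor. The interval also holds the zebrafish class I histocompatibility core region, where haplotypes are known to differ in gene content, and a family of *btr* genes (bloodthirsty-related TRIM genes).

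The study's peak lists hold a Smad2 peak in this interval with a predicted Foxh1 binding site. The study found such sites by searching peaks for a known sequence pattern, and Foxh1 binding itself was not measured. The site is shown because Foxh1 is among the factors that interact with Smad2 in Nodal signalling. The peak lies between *lrrc3b* and *KLHL7*, and the lists name no gene beside it. The whole listed site is in capitals, and its strand is not given in the sources used here.
Foxh1 site: GCAAATCAACT
Neither flanking gene reached 2-fold. *lrrc3b*, which encodes a leucine-rich repeat membrane protein, measured 0.56 FPKM in wild-type embryos against 0.913 FPKM in mutants. *KLHL7*, a substrate adaptor of a ubiquitin ligase, had 8.1 and 10.9 FPKM.

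*eomesa* (ENSDARG00000006640, chromosome 19, 839728 to 853794) checks the labels. It measured 62.6 FPKM in wild-type embryos against 1.52 FPKM in mutants, a log2 ratio of -5.36. Of the 349 genes around it, the authors marked 221 as having enough data for a comparison (status OK). The other 128 comprised 124 not tested, 3 failed and 1 with low data, and 47 of these 128 were listed at 0 in both groups. All 3 failed genes lie within 0.5 Mb of *eomesa* and are given below. Of the 221 genes, 162 averaged at least 1 FPKM over both groups and are called counted genes below, and 59 were lower. Of the counted genes, 23 lie before *eomesa* and 139 after it. The listed span of 42 of them overlaps that of another gene, so that reads may have been divided between them. None of the 162 was listed at 0 in either group. On the rest of chromosome 19, 6 of 421 counted genes were listed at 0 in a group, and on the other chromosomes 163 of 13971. These were counted as past 2-fold. Such genes were thus rare in every set, and their absence among the 162 does not set the interval apart.

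Most genes nearest to *eomesa* had a similar level in both groups. Of the 34 counted genes less than 1 Mb away, 0 differed by 2-fold or more, and their log2 ratios ran from -0.49 to 0.93. The background past 2-fold was 6.89% on the rest of chromosome 19 and 10.3% over all counted genes. The closest counted gene, *NRM*, which encodes the nuclear envelope protein nurim, measured 1.33 FPKM in wild-type embryos against 1.26 FPKM in mutants at a distance of 0.0387 Mb. *C19H1orf85*, a lysosomal membrane protein gene, had 7.19 and 6.63 FPKM. *msto1*, a gene with a role in mitochondrial distribution, had 9.87 and 9.27 FPKM, and *zgc:162356*, which is *gstr* in the symbol table and encodes a glutathione S-transferase, had 25.8 and 25.7 FPKM. These 4 genes lie at most 0.0849 Mb from *eomesa*, towards the start of the chromosome, and differed by at most 1.08-fold. Genes still closer or between them were barely detected or not marked OK: *PPP1R18*, at 0.0205 Mb, had 0.00859 and 0 FPKM, and on the other side the receptor gene *TGFBR2 (2 of 2)* had 0.0315 and 0.042 FPKM.

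On the other side of *eomesa*, *RNF5*, a ubiquitin ligase gene, measured 4.84 FPKM in wild-type embryos against 5.4 FPKM in mutants. Beyond it *SLC44A4*, a choline transporter-like gene, had 0.897 and 1.71 FPKM, a log2 ratio of 0.93 and the furthest from 0 of the 34. *ehmt2*, which encodes a histone H3 lysine methyltransferase, had 17.4 and 12.8 FPKM, and *OSBPL10 (1 of 2)*, an oxysterol-binding protein gene, had 4.93 and 3.53 FPKM. *ZDHHC3 (1 of 2)*, a palmitoyltransferase gene, had 3.01 and 3.81 FPKM. These last 3 genes share a listed span, and they differ in direction. Further towards the chromosome start, the survival gene *mcl1a* had 47.2 and 42.9 FPKM, the chromatin gene *vps72* 27.2 and 27.6 FPKM and *DUS3L*, a tRNA-modifying enzyme gene, 64.8 and 53 FPKM. Also among the counted genes within 0.5 Mb were *tnfaip8l2a* with 3.51 and 5.23 FPKM, *cyp51* of sterol synthesis with 0.878 and 1.26 FPKM, and *golph3l* with 1.6 and 1.14 FPKM. The 5 counted genes not yet named within 0.5 Mb, *ensaa*, *MTERF*, *CABZ01010098.1*, *akap9* and *NUPL2*, differed by at most 1.19-fold.

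The 3 genes whose comparison the authors marked as failed all lie in this stretch and do not enter the counts. Of these *tert*, the gene of the telomerase catalytic subunit, at 0.218 Mb, measured 4.45 FPKM in wild-type embryos against 1.44 FPKM in mutants, 3.10-fold lower. *sema6d*, a semaphorin gene, had 11.8 and 10.5 FPKM, and *TMEM79 (1 of 2)* 9.51 and 13.5 FPKM. With genes of every status kept, 1 of 37 genes less than 1 Mb from *eomesa* (2.7%) was thus past 2-fold, and 9.7% of 165 over the whole interval.

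Another 5 genes within 0.5 Mb were tested by the authors but had a mean under 1 FPKM, and 4 of them were past 2-fold at these low levels. Of all 59 such low genes near *eomesa*, these 5 included, 44.1% were past 2-fold. With no minimum level, and without genes listed at 0, the share on the other chromosomes was 15.6%. *scrt1a*, which encodes a Scratch-type zinc finger protein of developing neurons, measured 0.0624 FPKM in wild-type embryos against 0.572 FPKM in mutants. *slc39a4*, a zinc transporter gene, had 0.322 and 0.104 FPKM, *FHOD3 (2 of 2)*, a formin gene, 0.211 and 0.0792 FPKM, and a gene named *FUT9* in the symbol table, a fucosyltransferase, 0.102 and 0.203 FPKM. The fifth, ENSDARG00000077668, had 0.793 and 1.08 FPKM. The ratio of *scrt1a* rested on the small wild-type value, and its log2 ratio of 3.20 became 0.57 with 1 FPKM added to both groups.

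Over the whole interval, 15 of 162 counted genes (9.26%) differed by at least 2-fold between the groups. The background was 6.89% on the rest of chromosome 19 (29 of 421 genes), 10.3% on the other chromosomes (1444 of 13971) and 10.3% over all 15006 counted genes. The share near *eomesa* thus lay above that of the rest of its own chromosome and below that of the genome. The order against the genome depended on the settings. With 1 FPKM added to both groups the share was 6.79% near *eomesa* and 6.38% on the other chromosomes. Without genes listed at 0 it was 9.26% near *eomesa*, 9.28% on the other chromosomes and 9.2% over all counted genes. The rest of chromosome 19 then had 5.54%. Among genes that averaged at least 5 FPKM the share near *eomesa* was 7.41%, above the 5.91% of the other chromosomes. At 1.5-fold the order on chromosome 19 turned round, with 16.7% near *eomesa*, 19.7% on the rest and 23.7% on the other chromosomes. Leaving out adjacent genes with like names near *eomesa* gave 6.85% there, and this was not done for the other sets. It kept *krt92*, which the authors left unnamed, as well as *cyt1* and *ST3GAL1 (1 of 5)*. At 4-fold the shares were 4.32%, 2.14% and 3.19%. The median absolute log2 ratio was 0.26 near *eomesa*, 0.26 on the rest of chromosome 19 and 0.29 on the other chromosomes.

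In the direction of the differences, 11 of the 15 genes (6.79% of the 162) were higher in MZ*eomesa* embryos, where the background was 3.33% on the rest of chromosome 19, 6.06% on the other chromosomes and 6.02% over all counted genes. The other 4 (2.47%) were lower, against 3.56%, 4.28% and 4.26%. The median log2 ratio was 0.08 near *eomesa*, -0.03 on the rest of chromosome 19 and -0.01 on the other chromosomes. As a further comparison, the first 11 Mb of each of the 24 other chromosomes gave shares past 2-fold from 4.35% on chromosome 2 to 33.3% on chromosome 7, with a median of 7.57%. The share near *eomesa* was exceeded on 6 of these 24 chromosomes. Its median log2 ratio was exceeded on 2 of them.

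The 15 genes were not those closest to *eomesa*. All lay between 1.15 and 8.74 Mb away. By steps of 1 Mb, 2 of 13 genes were past 2-fold at 1 to 2 Mb, 4 of 20 at 2 to 3 Mb, 2 of 7 at 3 to 4 Mb, 0 of 12 at 4 to 5 Mb, 3 of 12 at 5 to 6 Mb, 2 of 14 at 6 to 7 Mb, 1 of 25 at 7 to 8 Mb and 1 of 14 at 8 to 9 Mb. None of the 11 genes further away was. Apart from 0 to 1, 2 to 3 and 7 to 8 Mb, these steps hold fewer than 20 genes, so their shares are coarse. Across the 162 genes the absolute log2 ratio and the distance had a Spearman's rho of -0.03 and a Pearson's r of 0.00, as a description over genes that share the same libraries. On the rest of chromosome 19, 9 of 110 genes were past 2-fold at 10 to 20 Mb, 9 of 100 at 20 to 30 Mb, 8 of 89 at 30 to 40 Mb and 3 of 122 at 40 to 50 Mb.

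**Figure D1:**
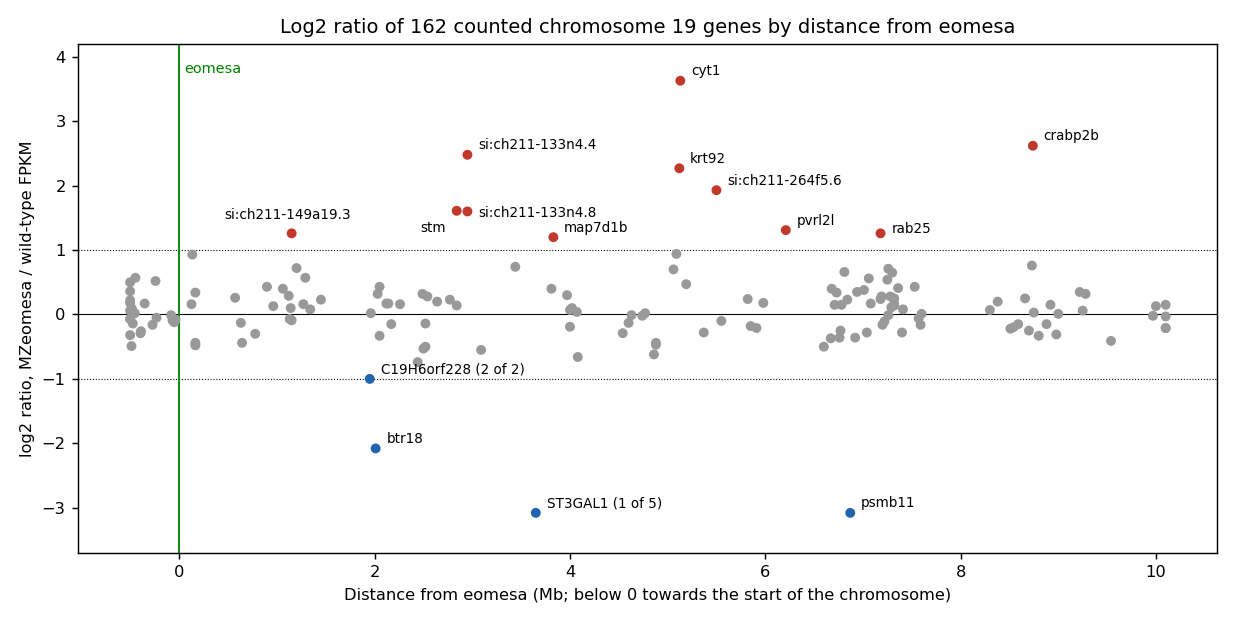
Level in MZ*eomesa* over that in wild-type embryos as a log2 ratio (vertical axis) against distance from *eomesa* in Mb (horizontal axis) for the 162 counted genes, 1 point per gene. Red points are at least 2-fold higher and blue points at least 2-fold lower in MZ*eomesa* embryos, the dotted lines mark 2-fold, and all 34 points less than 1 Mb from *eomesa* lie between the dotted lines.

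**Figure D2:**
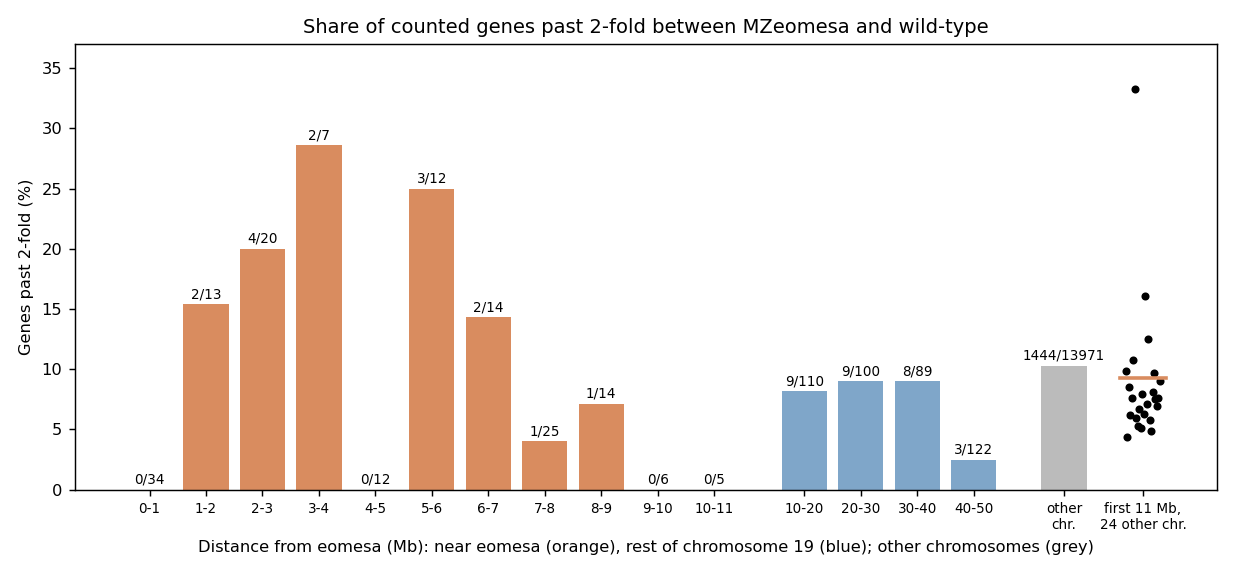
Share of counted genes past 2-fold (vertical axis, per cent) by distance from *eomesa* in Mb, with the number past 2-fold and the number counted over each bar; orange bars are genes near *eomesa*, blue bars the rest of chromosome 19 and the grey bar the other chromosomes. Each black point at the right is the first 11 Mb of 1 of the 24 other chromosomes, and the orange line is the 9.26% of the genes near *eomesa*, which 6 of the points exceed.

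The gene with the highest ratio of the interval belonged to a group of 7 type I keratin genes at 5948855 to 6004990, which encode intermediate filament proteins of the outer cell layers. *krt92* (ENSDARG00000036834, 5974114 to 5976185) measured 6.18 FPKM in wild-type embryos against 29.9 FPKM in mutants, a log2 ratio of 2.27. *cyt1* (ENSDARG00000092947, 5986622 to 6004990) had 0.184 and 2.28 FPKM. Its log2 ratio, 3.63, was the highest of all 162 genes, but it rested on the small wild-type value and became 1.47 with 1 FPKM added to both groups, below the 2.36 of *crabp2b* and the 2.11 of *krt92*. These were the only keratin genes of the group that were counted, and both were higher in MZ*eomesa* embryos. Below 1 FPKM on average, *cyt1l* had 0.0991 and 0.67 FPKM and *krt91* had 0.111 and 0.793 FPKM. *krt91* shares its listed span with *cyt1*. *krt1-19e* measured 0.371 FPKM in wild-type embryos against 0.338 FPKM in mutants, so that 4 of the 5 genes marked OK were past 2-fold, all higher. The background was 10.3% over all counted genes. It was 44.1% among the genes near *eomesa* that averaged under 1 FPKM, a group that includes *cyt1l* and *krt91* themselves. No share for such low genes alone was computed outside the interval. *krt1-19d* and *krt17* were not tested and were near 0, at 0.0169 and 0.0344 FPKM and at 0.0376 and 0.153 FPKM. The summed level of all 7 amounted to 7 FPKM in wild-type embryos against 34.2 FPKM in mutants, most of it *krt92*. The genes that flank the keratins were less than 2-fold apart: *si:dkeyp-113d7.1* had 3.19 and 6.13 FPKM (log2 ratio 0.94) and the translation initiation gene *eif1b* had 248 and 344 FPKM (log2 ratio 0.47).

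*rab25* (8037510 to 8043250), a small GTPase of membrane recycling in epithelia, measured 0.942 FPKM in wild-type embryos against 2.26 FPKM in mutants. *pvrl2l* (7062873 to 7397291), a nectin-like cell adhesion gene, had 1.51 and 3.74 FPKM, and its span overlaps other genes. Their log2 ratios were 1.26 and 1.31. Other junction genes of the interval differed in direction or were level. *JUP (2 of 2)*, whose product plakoglobin links junctions to the cytoskeleton, measured 0.986 FPKM in wild-type embryos against 0.327 FPKM in mutants. *JUP (2 of 2)* averaged under 1 FPKM and was not counted, and 44.1% of such low genes near *eomesa* were past 2-fold. The cingulin gene *cgnb*, of tight junctions, had 16.5 and 17.4 FPKM. Both were chosen after their values were seen.

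A second group of higher values lay at *stm* (3697799 to 3795238), which encodes Starmaker, a protein of the otolith, and just after it. Before *stm*, the closest counted gene *hsf1* had 21.2 and 24.9 FPKM. *stm* measured 28.2 FPKM in wild-type embryos against 86.1 FPKM in mutants, 3.05-fold higher. By *in situ* hybridisation the paper also reports more *stm* in MZ*eomesa* embryos, and its strong repression in wild-type embryos injected with *eomesa* mRNA. The neighbours *si:ch211-133n4.4* (3800318 to 3803134) and *si:ch211-133n4.8* (3805454 to 3806967) do not share the span of *stm*. *si:ch211-133n4.4* measured 7.99 FPKM in wild-type embryos against 44.5 FPKM in mutants, a log2 ratio of 2.48. *si:ch211-133n4.8* had 2.2 and 6.65 FPKM, 3.02-fold higher. Further along, *illr3*, an immune-related lectin-like receptor gene, was low in both groups, at 0.173 and 0.438 FPKM, and the 3 genes before it, *illr1*, *si:ch211-133n4.12* and *si:ch211-133n4.11*, were not tested and lay below 0.1 FPKM. Genes inside the listed span of *stm* did not follow it. *zgc:86598*, the name the symbol table gives to an unnamed gene of the file, measured 65.2 FPKM in wild-type embryos against 72 FPKM in mutants, and *si:ch211-133n4.6* had 0.517 and 0.17 FPKM.

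The remaining higher genes lay apart from one another. *crabp2b* (9595577 to 9602574), which encodes a cellular retinoic acid-binding protein, measured 4.06 FPKM in wild-type embryos against 25 FPKM in mutants, 6.16-fold higher. Its neighbour *MRPS21*, a mitochondrial ribosomal protein gene, had 15.5 and 26.2 FPKM, and *SCAMP3*, a secretory carrier membrane protein gene on the other side, had 5.65 and 5.76 FPKM. *map7d1b*, whose name places it with microtubule-associated proteins, had 3.95 and 9.06 FPKM. *si:ch211-264f5.6* had 0.753 and 2.86 FPKM, and *si:ch211-149a19.3*, which shares its span with *ggcta*, had 0.591 and 1.42 FPKM. With 1 FPKM added to both groups, 3 of the 11 higher genes no longer reached 2-fold: the log2 ratios were 0.92 for *pvrl2l*, 0.75 for *rab25* and 0.60 for *si:ch211-149a19.3*. *C19H6orf228 (2 of 2)*, among the lower genes, then had -0.96. Among the 15 genes past 2-fold, 3 neighbouring pairs of counted genes lay on the same side, all of them higher in MZ*eomesa* embryos.

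**Figure D3:**
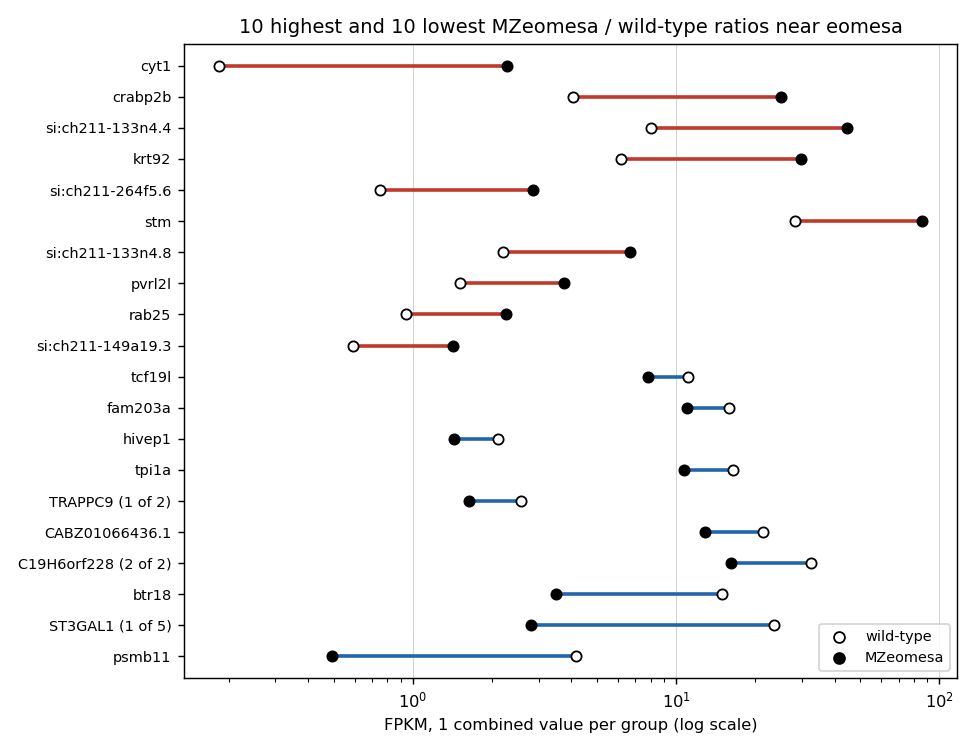
FPKM in wild-type (open circles) and MZ*eomesa* embryos (filled circles) on a log axis for the 10 counted genes with the highest and the 10 with the lowest ratio near *eomesa*, in order of the ratio. Each circle is 1 value combined by the authors, without a spread; red lines join genes higher and blue lines genes lower in MZ*eomesa* embryos, and of the 10 lowest the last 4, from *C19H6orf228 (2 of 2)* down, are at least 2-fold lower.

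Of the counted genes, 4 were at least 2-fold lower. *psmb11* (ENSDARG00000031885), which the symbol table names *psmb12*, encodes a proteasome beta subunit of the class I core region and measured 4.17 FPKM in wild-type embryos against 0.491 FPKM in mutants, 8.48-fold lower. It shares its listed span of 7728373 to 7767121 with 3 other proteasome subunit genes, each of which averaged under 1 FPKM and was not counted. With 1 FPKM added to both groups its log2 ratio went from -3.08 to -1.79. *psmb8* had 1.06 and 0.695 FPKM, *psmb9a* 1.16 and 0.795 FPKM, and *psmb10*, which is *psmb13a* in the symbol table, 0.281 and 0.123 FPKM. Their summed level amounted to 6.67 FPKM in wild-type embryos against 2.1 FPKM in mutants, and most of that difference was *psmb11*. Other genes of the class I list were less than 2-fold apart or not detected. *tapbp* and *TAPBP (1 of 2)*, which encode forms of the chaperone tapasin, had 5.37 and 8.5 FPKM, and 6.64 and 7.78 FPKM. The peptide transporter gene *abcb3l1* had 0.112 and 0.124 FPKM, and the class I gene *mhc1uba* was listed at 0 in both groups. Of the 8 genes of this list, 3 were counted, and 1 of these was lower and 0 higher by 2-fold, where the background over all counted genes was 10.3% in either direction.

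*ST3GAL1 (1 of 5)* (ENSDARG00000057593, 4501284 to 4504506), a sialyltransferase gene by its name, measured 23.6 FPKM in wild-type embryos against 2.8 FPKM in mutants, 8.44-fold lower. Its neighbour *ST3GAL1 (2 of 5)* was not tested, at 0.058 and 0.156 FPKM, and *st3gal1* lies further along the interval and had 3.7 and 3.03 FPKM. *btr18* (2866353 to 2872223) measured 14.9 FPKM in wild-type embryos against 3.5 FPKM in mutants, 4.24-fold lower. Its neighbour *btr19* had 0.558 and 0.152 FPKM. The family has 9 members in the interval, of which 5 were counted, and the other 4 counted members were nearly level: *btr22* had 2.23 and 2.26 FPKM, *btr24* 1.23 and 1.08 FPKM, *btr26* 5.81 and 6.08 FPKM and *btr27* 1.48 and 1.59 FPKM. Next to these genes, *C19H6orf228 (2 of 2)*, a small integral membrane protein gene, measured 32.5 FPKM in wild-type embryos against 16.2 FPKM in mutants, just at 2-fold. Its copy *C19H6orf228 (1 of 2)* differed in the opposite direction, with 38.3 and 63.9 FPKM. Summed over both copies the level amounted to 70.8 FPKM in wild-type embryos against 80.1 FPKM in mutants. *TRAPPC9 (1 of 2)* and *TRAPPC9 (2 of 2)*, copies of a vesicle trafficking gene, were both lower, with 2.57 and 1.63 FPKM and with 0.735 and 0.292 FPKM. *CDCP1 (1 of 3)* had 53.9 and 67.1 FPKM and *CDCP1 (2 of 3)* 46.5 and 56.6 FPKM. The copies named here beside those in the order of ratios were chosen after their values were seen. The authors' estimation divided reads that map to several places, so the values of similar copies depend on one another.

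**Figure D4:**
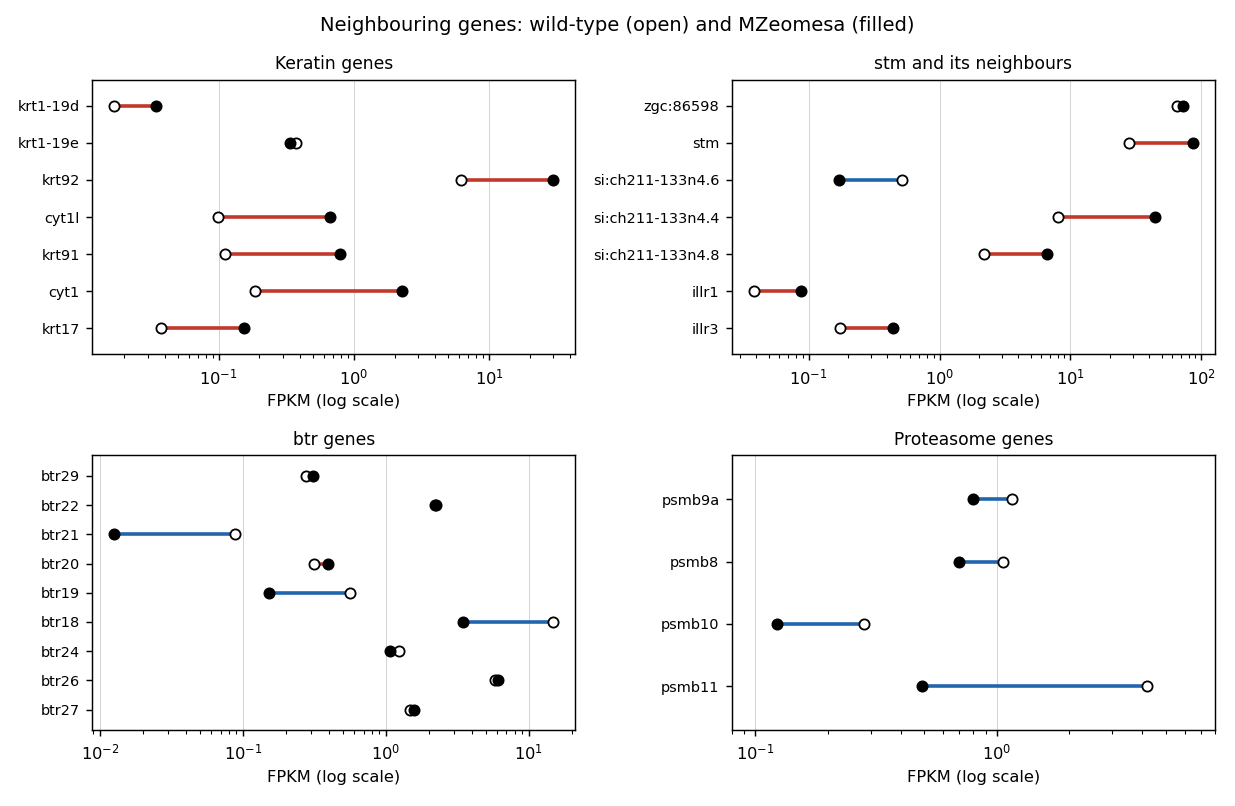
FPKM in wild-type (open circles) and MZ*eomesa* embryos (filled circles) on log axes for neighbouring keratin genes, *stm* and its neighbours, the *btr* genes and the proteasome genes, in order along the chromosome in each panel. In the keratin panel *krt92*, *cyt1l*, *krt91* and *cyt1* are higher in MZ*eomesa* embryos, in the proteasome panel each filled circle lies to the left of the open one, and in the *btr* panel *btr18* is lower while the circles of the other 4 counted members nearly coincide. Genes listed at 0 are left out.

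After these 4 genes the lower values were smaller in size. *CABZ01066436.1*, which is *recql4* in the symbol table and encodes a DNA helicase, measured 21.4 FPKM in wild-type embryos against 12.9 FPKM in mutants. The glycolysis gene *tpi1a* had 16.5 and 10.7 FPKM, the zinc finger gene *hivep1* 2.1 and 1.43 FPKM, *fam203a* 15.9 and 11 FPKM and *tcf19l* 11.1 and 7.84 FPKM. All 5 were less than 2-fold lower.

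Abundant genes of the interval were close to level, as were most such genes elsewhere. Of the 7 counted genes that averaged 100 FPKM or more, 0 differed by 2-fold. The background at this level was 3.77% on the rest of chromosome 19 and 3.04% on the other chromosomes. The median absolute log2 ratio was 0.21 near *eomesa*, 0.21 on the rest of chromosome 19 and 0.17 on the other chromosomes. The highest was *si:ch211-288g17.3*, with 346 FPKM in wild-type embryos against 440 FPKM in mutants, followed by *eif1b* given above. *CDCA7L*, a cell division cycle-associated gene, had 184 and 207 FPKM, the splicing factor gene *sf3b4* 173 and 209 FPKM, and the splicing factor gene *u2af2b* 171 and 190 FPKM. No name in the interval matched the pattern set for ribosomal proteins (*rpl* or *rps* and a digit). Ribosomal genes under other names, chosen after their values were seen, were *rplp1* with 58.3 and 71.3 FPKM and *zgc:109888* (*rps27.1* in the symbol table) with 103 and 88.5 FPKM.

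The share past 2-fold also varied with the level. Between 10 and 100 FPKM, 6 of 73 counted genes near *eomesa* (8.22%) were past 2-fold, against 10 of 188 on the rest of chromosome 19 (5.32%) and 4.42% on the other chromosomes. Between 1 and 10 FPKM it was 9 of 82 (11%), against 9.44% and 16.6%. From 100 FPKM upwards it was 0 of 7, against 2 of 53 on the rest of chromosome 19 and 3.04% on the other chromosomes. A first class held genes named only by a clone, an accession or a numbered similarity, such as *ST3GAL1 (1 of 5)*. It also held genes that the authors left unnamed, among them *krt92*, which was past 2-fold. In this class, 7 of 44 genes (15.9%) were past 2-fold near *eomesa* and 6 of 108 (5.56%) on the rest of chromosome 19. For all other counted genes it was 8 of 118 (6.78%) near *eomesa* and 23 of 313 (7.35%) on the rest. Against the rest of chromosome 19, the share near *eomesa* was thus higher in the first class and not among the other genes. This difference was not tested. The share of the first class was not computed on the other chromosomes or over all counted genes, so it has no background over the genome. Its genes past 2-fold near *eomesa* include the adjacent neighbours of *stm* given above.

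Genes that the study lists beside a Smad2 peak in the interval were *stm* and *scrt1a*, both given above, *brd2a* and *FP085392.1*. *brd2a*, which encodes a bromodomain protein, measured 79 FPKM in wild-type embryos against 61.5 FPKM in mutants, and *FP085392.1*, which shares its span, was listed at 0 in both groups. *stm* is also listed beside a peak common to Smad2 and Eomesa. The separate list of Eomesa peaks was not used here.

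Among the 59 genes with a mean under 1 FPKM, 11 were at least 2-fold higher and 15 at least 2-fold lower (44.1% in all), and their median absolute log2 ratio was 0.86. Differences of this kind at low levels are coarse, since the number of reads is unknown. The furthest apart were *CABZ01073736.1* with 0.605 FPKM in wild-type embryos against 0.0207 FPKM in mutants, and *CABZ01029822.1* with 0.501 and 0.0232 FPKM. *CABZ01073740.1*, close to the first of them, had 0.602 and 0.146 FPKM. These 3 genes were chosen after their values were seen. Within 1 Mb of *eomesa*, 6 of 16 such genes were past 2-fold, while 0 of the 34 counted genes were. On the higher side *PPP1R1B*, which encodes a phosphatase inhibitor of neurons and was also chosen after its values were seen, had 0.0535 and 0.214 FPKM. The share past 2-fold among such low genes alone was not computed outside the interval, so the 44.1% has no matched background. With no minimum level, and without genes listed at 0, the share near *eomesa* was 18.6%. It was then 9.75% on the rest of chromosome 19 and 15.6% on the other chromosomes.

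None of the 6 counted genes nearest to the border at 11 Mb reached 2-fold. The background was 6.89% on the rest of chromosome 19 and 10.3% over all counted genes, so 6 genes are too few to set the border apart. Just inside it, *ccdc106* measured 72.1 FPKM in wild-type embryos against 62.5 FPKM in mutants, *tmem238* 5.25 and 4.55 FPKM, and *epn1b*, an endocytosis gene that the file leaves unnamed, 1.54 and 1.51 FPKM. Just outside it, *necap1*, also of endocytosis, had 31.2 and 30.8 FPKM, the transcription factor gene *usf2* 108 and 117 FPKM, and *si:dkey-211g8.5* 43 and 64.3 FPKM, 1.5-fold higher.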

How the data were processed

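The authors mapped single reads with TopHat2 (version 2.0.5 in the submitters' processing notes, build Zv9) and used Cufflinks, dividing reads that map to several places. Their deposited table holds 1 FPKM value per gene and group, combined over 2 samples. Its further columns hold the authors' own fold changes, test statistics, p-values and q-values, and these were not used. The status column was used only to leave out genes without enough data. As 0 columns hold single samples, depth and replicate spread are unknown and no test was made.

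Log2 ratios divided the MZ*eomesa* value by the wild-type value, with no pseudocount. Genes with status OK and a mean of at least 1 FPKM were counted, and called where the groups differed by at least 2-fold. Distance is the gap to *eomesa* from the listed span, which can cover several merged genes. Symbols of 248 of 349 identifiers were found in the table of gene symbols given for zebrafish, which named 9 of the 10 genes that the file leaves unnamed. Named were genes within 0.5 Mb, the 10 highest and 10 lowest ratios, the 5 most abundant genes, genes beside Smad2 peaks, class I genes and 3 genes on each side of the border. Genes of a neighbourhood, genes marked as failed, copies and low genes were chosen after their values were seen. Members and lists were chosen with earlier results of these data known. A search of promoters for T-box motifs was planned and is not used here. The counting was tested on simulated data. Tables were handled in pandas 2.3.3 with numpy 2.4.6 under Python 3.11.15, correlations in scipy 1.17.1, and plots in matplotlib 3.10.9.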

Additional observations from a re-analysis of the deposited data

How the results depend on the processing

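No paired analysis was possible because the deposited table holds 1 combined value per group, and for the same reason no replicate could be left out. With log2(FPKM + 1), the share past 2-fold was 6.79% near *eomesa*, 4.51% on the rest of chromosome 19 and 6.38% on the other chromosomes. Without a minimum level it was 18.6% near *eomesa* and 12% less than 1 Mb away. It was then 9.75% on the rest of chromosome 19 and 15.6% on the other chromosomes. Near *eomesa*, 22 genes were higher and 19 lower. With a minimum of 5 FPKM the other chromosomes had 5.91% and 5 genes near *eomesa* were higher, and with 10 FPKM 4.24%, 4 higher and 2 lower. The share near *eomesa* was then 7.41% and 7.5%, above the other chromosomes. Without genes that share a span 7 of 120 were higher. The share past 2-fold was then 8.33% near *eomesa*, 6.07% on the rest of chromosome 19 and 10.3% on the other chromosomes. At 1.5-fold the shares were 16.7% near *eomesa*, 2.94% less than 1 Mb away, 19.7% on the rest of chromosome 19 and 23.7% on the other chromosomes, with 20 higher and 7 lower. At 4-fold they were 4.32%, 2.14% and 3.19%, with 4 higher. Up to 5 Mb from *eomesa* 5 genes were higher, and up to 2 Mb 1 was higher and 1 lower, a share of 4.26%. Fewer genes enter under the higher minimums, the span setting and the shorter distances. The next 2 settings were added once the data had been seen. Keeping genes of every status gave 2.7% less than 1 Mb away, from *tert*. Without genes listed at 0 the share was 9.26% near *eomesa*, 9.28% on the other chromosomes, 9.2% over all counted genes and 5.54% on the rest of chromosome 19. Leaving out neighbours whose names begin alike, some of which share only a clone name, gave 6.85% near *eomesa*. Genes that the authors left unnamed, such as *krt92*, could not be matched. The keratin genes *krt92* and *cyt1* therefore stayed in, as did *ST3GAL1 (1 of 5)*. This setting was not applied to the rest of chromosome 19 or the other chromosomes, so it has no matched background. Of 192 values of single named genes under other settings, 12 moved by over 1.5-fold, all with a pseudocount, and none past 2-fold turned direction.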

Other observations

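Relatives of the keratin and *btr* genes elsewhere in the genome, looked up after the values near *eomesa* were seen, gave the following values. Of 4 counted genes with a keratin name on the other chromosomes, 1 was at least 2-fold higher in MZ*eomesa* embryos and 0 were lower, and their log2 ratios had a median of 0.64 and ran from -0.21 to 1.75. Both counted keratin genes near *eomesa* were above that range. With 1 FPKM added to both groups, however, *cyt1* had a log2 ratio of 1.47 and *krt92* of 2.11, and the range was not recomputed. *cyt1* averaged 1.23 FPKM, and the keratin genes on the other chromosomes at least 4.7 FPKM. Of 5 counted *btr* genes on the other chromosomes 0 were past 2-fold, with log2 ratios from -0.89 to 0.98, and *btr18* near *eomesa* was below that range.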
